A study of Homo sapiens with 20 samples.

Results

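RNA levels of uninduced cultures were followed over time in the U937T_EVI1-HA clones E10 and E14, which were kept in tetracycline (tet). U937 is a human myeloid cell line, and each clone, a single selected line, carries an HA-tagged human EVI1 cDNA whose expression tet represses. Tet was present after the wash in the cultures compared here, which were harvested at 24 and 48 h (4 arrays, 2 per clone) and at 6 and 12 h (4 arrays, 2 per clone). These 8 of the 20 arrays of the series were chosen by clone, culture condition and time alone. All of them share the transgene, serum, puromycin, hygromycin and tet, so that they differ in clone and in the time since washing. The other 12 arrays are E10 and E14 without tet at the same times (8 arrays), in which EVI1 was induced, and the control lines P2 (U937T_vec, empty vector) and U937T (parental) at 48 h with and without tet (4 arrays). Each clone, time and condition was hybridized once, and no culture before washing was analysed here.

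A culture that stands for a day or more after fresh medium uses up nutrients, becomes denser and leaves the state in which it was resuspended. Cells that lack sterols release sterol regulatory element binding proteins, which switch on the enzymes of cholesterol and fatty acid synthesis, and cells short of amino acids or oxygen switch on inhibitors of the growth kinase mTORC1 such as DDIT4 and SESN2. Histone genes of the replication-dependent class are transcribed mainly in S phase, and monocytic cells carry receptors and oxidase subunits whose amounts follow their state of maturation.

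The values are levels on a log2 scale after Robust Multi-array Analysis (RMA), so that a difference of 1 is a 2-fold difference. A probe set was used when it carried 1 gene symbol and had a mean of at least 3 over the 8 arrays, and a gene was read from its brightest probe set on average, which gave 18314 genes. MECOM, the gene of which EVI1 is a product, read between 7.13 and 7.34 at 24 and 48 h with tet and between 7.06 and 7.14 at 6 and 12 h, and between 8.52 and 10.51 over the 8 arrays without tet, so that no clone array with tet overlapped with one without. The control lines at 48 h read 5.91 (P2) and 6.53 (U937T) without tet and 6.9 and 6.48 with tet, which is below all 8 clone arrays with tet, so that these values do not show the transgene to be silent with tet. MS4A3 read 11.87 to 12.05 at 24 and 48 h with tet and 11.81 to 11.93 at 6 and 12 h. A second, dimmer MS4A3 probe set differed by -0.27 between these pairs of times and by -0.82 between 12 and 6 h. Of the U937 identity markers 12 of 14 were measured, and their mean level was 9.03 to 9.23 at 24 and 48 h against 9.18 to 9.39 at 6 and 12 h. Marker lists of other cells had mean levels of 5.22 to 5.47 against 5.28 to 5.38 for lymphoid genes (14 of 15 measured), 5.84 to 5.97 against 5.95 to 6.1 for erythroid and megakaryocyte genes (10 of 15) and 4.79 to 5.02 against 4.88 to 5.0 for epithelial and fibroblast genes (14 of 15), and none of these markers was called in any comparison between times with tet. Probe sets against the 3′ and 5′ ends of actin and GAPDH report on RNA integrity and labeling, and the 3′ minus 5′ difference was 0.69 and 0.656 in E10 and 1.52 and 0.745 in E14 at 24 and 48 h, against 0.187 and 0.55 in E10 and 0.45 and 1.02 in E14 at 6 and 12 h. It was lowest at 6 h in both clones, and the E14 array at 24 h stood apart from the other 3 late arrays.

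Between the late and the early arrays with tet, 22 genes were higher and 10 lower at 24 and 48 h than at 6 and 12 h (limma with the clone as a block, adjusted p under 0.05). These are 0.12% and 0.0546% of the genes tested, and 2 of the higher and 6 of the lower genes changed at least 2-fold. DDIT4, an inhibitor of mTORC1, rose most, and CSF1R, the receptor for macrophage colony-stimulating factor, fell most. All 32 genes moved the same way in both clones, and in each of them the 4 late arrays lay on one side of the 4 early arrays, which was also true of 685 genes (3.74%) in the higher and 534 genes (2.92%) in the lower direction among all genes. The smallest adjusted p was 0.031 and 2254 genes had an unadjusted p under 0.05 in limma. Because the late and early arrays of these 32 genes do not overlap, leaving out a single array could not reverse their direction. The calls were not kept: none of the 32 remained without E10 at 48 h, E14 at 6 h, E14 at 24 h or E14 at 48 h. Without E10 at 6 h 1 remained, 5 without E10 at 24 h, 9 without E14 at 12 h and 28 without E10 at 12 h.

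**Figure D1:**
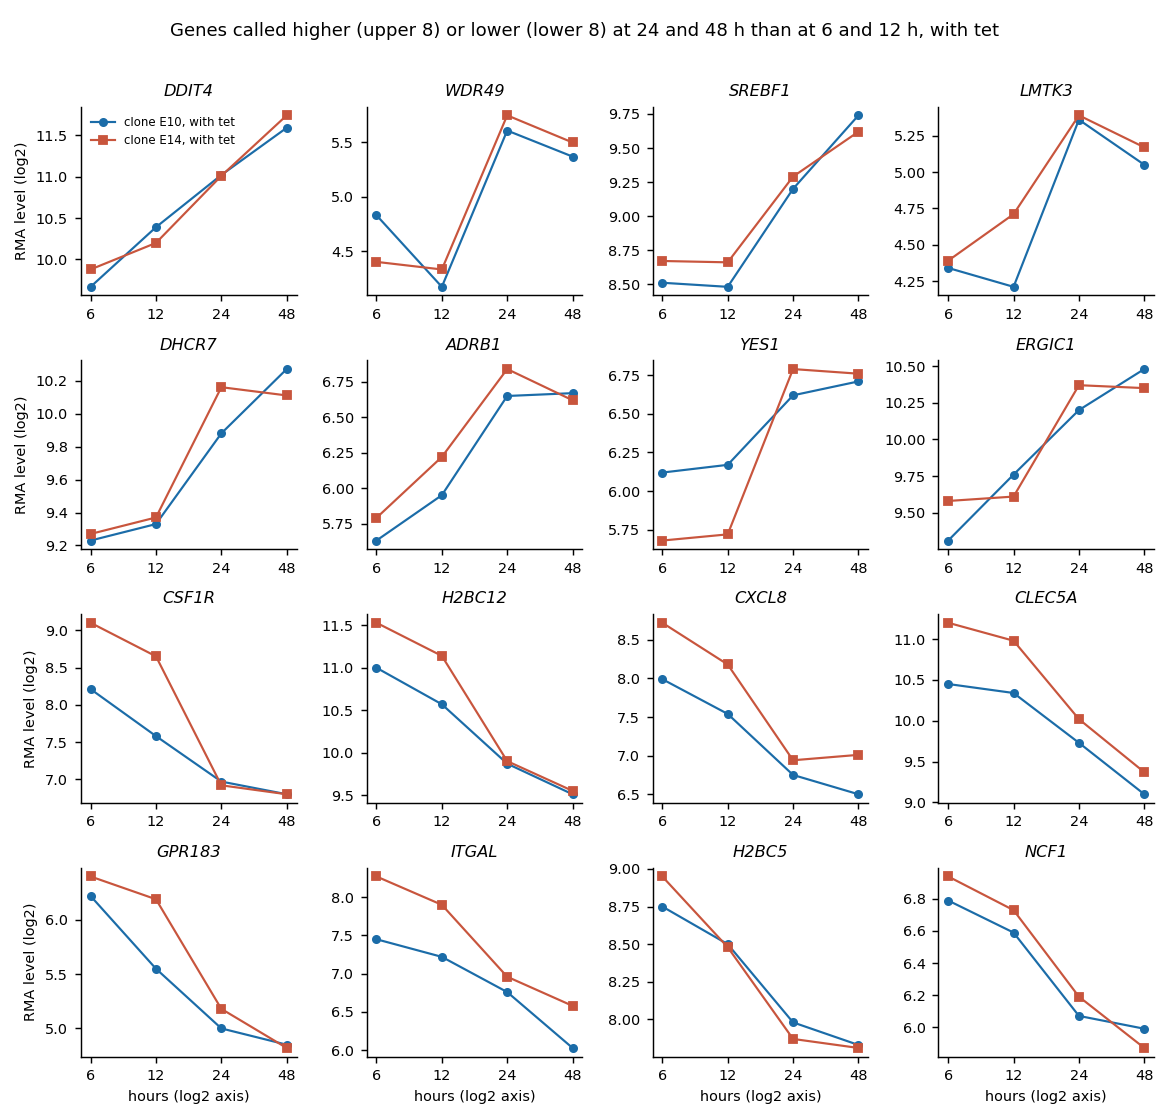
RMA level (log2) of the 8 genes with the largest rise and the 8 with the largest fall among those called, by hours after washing (log2 axis); each point is 1 array, circles are clone E10 and squares clone E14, both with tet. In every panel both late points of a clone lie beyond both of its early points, for instance DDIT4 at 11.01 to 11.74 at 24 and 48 h against 9.67 to 10.39 at 6 and 12 h.

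Genes of sterol and lipid synthesis were among those that rose. SREBF1, which encodes the sterol regulatory element binding protein 1, read 9.2 and 9.74 in E10 and 9.29 and 9.62 in E14 at 24 and 48 h, against 8.51 and 8.48 in E10 and 8.67 and 8.66 in E14 at 6 and 12 h. Its level was flat over the first 12 h and higher in every later array, by 0.88 (standard error 0.13, limma adjusted p = 0.032). A second, dimmer SREBF1 probe set rose by less, by 0.35, and was not flat at first, with -0.40 between 12 and 6 h. DHCR7, the enzyme of the last step of cholesterol synthesis, read 9.88 and 10.27 in E10 and 10.16 and 10.11 in E14 at 24 and 48 h, against 9.23 and 9.33 in E10 and 9.27 and 9.37 in E14 at 6 and 12 h. It rose by 0.81 (standard error 0.10, limma adjusted p = 0.031), and a second, dimmer DHCR7 probe set rose by 0.46. LSS, which closes the rings of lanosterol, averaged 10.2 ± 0.089 at 24 and 48 h and 9.65 ± 0.124 at 6 and 12 h (SD, n = 4 each, limma adjusted p = 0.032). Its dimmer probe sets rose by less, by 0.10 and 0.37. Of the 19 measured genes of cholesterol synthesis and uptake, DHCR7 and LSS were called and 17 differences were above 0, with a median of 0.15 beside -0.02 over all genes tested. Of the 10 measured genes of fatty acid synthesis and desaturation only SREBF1 was called, and the median of the list was 0.20.

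The stress genes that restrain mTORC1 rose as well. DDIT4 read 11.02 and 11.59 in E10 and 11.01 and 11.74 in E14 at 24 and 48 h, against 9.67 and 10.39 in E10 and 9.88 and 10.2 in E14 at 6 and 12 h. It climbed at each step in both clones, and the late arrays averaged 2.47 times the early ones (log2 change 1.31, standard error 0.20, limma adjusted p = 0.041). SESN2, a leucine sensor that acts on the same kinase, read 8.62 and 8.78 in E10 and 9.0 and 8.85 in E14 at 24 and 48 h, against 7.7 and 8.18 in E10 and 8.04 and 8.24 in E14 at 6 and 12 h (log2 change 0.77, standard error 0.11, limma adjusted p = 0.032). Its second probe set gave 0.86. They were the 2 called genes of 22 in the list of amino acid and ATF4 targets, whose median was 0.07, and DDIT4 was the 1 called gene of 24 in the hypoxia list, with a median of 0.04.

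The other genes that rose are in none of the lists examined. WDR49, a protein of WD repeats, averaged 5.56 ± 0.162 at 24 and 48 h and 4.43 ± 0.283 at 6 and 12 h (SD, n = 4 each), but its second probe set read -0.15, so that the rise was seen by 1 of 2 probe sets. LMTK3, a kinase of the lemur tyrosine kinase family, rose by 0.83, and ADRB1, the beta-1 adrenergic receptor, by 0.80, while both of its dimmer probe sets stayed within 0.09 of no change (-0.07 and -0.08). YES1, a kinase of the SRC family, rose by 0.80, ERGIC1, a protein of the compartment between endoplasmic reticulum and Golgi, by 0.78, SAMD13 by 0.78 and the sialyltransferase ST6GALNAC3 by 0.78 (limma adjusted p 0.031 or 0.032 for these 4). The dimmer probe sets of ERGIC1 read 0.47, 0.13 and 0.04, and those of YES1 0.56 and 0.03. The last of each lay below the filter. The 10 called genes beyond those named so far and the lists lay between 0.57 and 0.76, and they were TUBE1, ZFP90, CLCN4, ANK2, TNIK, PCMTD1, PHACTR3, HRK, ATP8A1 and RFLNB, among them the chloride and proton exchanger CLCN4, the phospholipid flippase ATP8A1 and HRK, a BH3-only activator of cell death.

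Among the genes that fell, the histones moved together over the whole list. H2BC12, a histone H2B gene, read 9.87 and 9.51 in E10 and 9.9 and 9.55 in E14 at 24 and 48 h, against 11.0 and 10.57 in E10 and 11.53 and 11.14 in E14 at 6 and 12 h. It fell by 1.35 (standard error 0.16, limma adjusted p = 0.031), and its highest late array (9.9) lay below its lowest early array (10.57). H2BC5 read 7.98 and 7.83 in E10 and 7.87 and 7.81 in E14 at 24 and 48 h, against 8.75 and 8.5 in E10 and 8.95 and 8.48 in E14 at 6 and 12 h (log2 change -0.80, limma adjusted p = 0.032). H2AC6, a histone H2A gene, had the largest difference of the list and was not called, with 6.34 and 6.16 in E10 and 6.23 and 6.21 in E14 at 24 and 48 h, against 8.77 and 7.21 in E10 and 9.77 and 7.7 in E14 at 6 and 12 h (log2 change -2.13, limma adjusted p = 0.1). Its level at 12 h lay far below that at 6 h, which widened the spread of the early arrays. All 12 measured replication-dependent histone genes had a difference below 0, with a median of -0.80, and 2 were called. Histone genes of 1 class are nearly alike in sequence, so that a probe set may read several of them and the single names are uncertain. What part of the RNA of these genes the probe sets read was not tested.

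The upstream regions of these genes are shown because the histones were the list that moved most and because H2B promoters are known for an octamer bound by OCT1. The strand shown is that of the gene, from 200 bases before its start to the last base before it, from RefSeq on GRCh38.p14, and capitals mark the octamer ATTTGCAT or its reverse complement.
H2BC12, chr6:27146856-27147055, minus strand: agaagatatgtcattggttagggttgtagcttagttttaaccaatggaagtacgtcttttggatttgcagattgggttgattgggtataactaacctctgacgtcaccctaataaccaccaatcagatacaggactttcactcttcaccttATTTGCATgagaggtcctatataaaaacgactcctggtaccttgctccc
H2AC6, chr6:26123972-26124171, plus strand: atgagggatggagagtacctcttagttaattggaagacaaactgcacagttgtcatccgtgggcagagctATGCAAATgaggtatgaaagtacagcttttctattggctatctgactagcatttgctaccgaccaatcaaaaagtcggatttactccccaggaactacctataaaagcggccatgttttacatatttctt
H2BC21, chr1:149886683-149886882, minus strand: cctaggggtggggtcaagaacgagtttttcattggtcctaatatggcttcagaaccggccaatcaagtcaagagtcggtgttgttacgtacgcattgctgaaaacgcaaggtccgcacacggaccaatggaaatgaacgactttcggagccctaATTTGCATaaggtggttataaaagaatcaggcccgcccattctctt
H2BC5, chr6:26157921-26158120, plus strand: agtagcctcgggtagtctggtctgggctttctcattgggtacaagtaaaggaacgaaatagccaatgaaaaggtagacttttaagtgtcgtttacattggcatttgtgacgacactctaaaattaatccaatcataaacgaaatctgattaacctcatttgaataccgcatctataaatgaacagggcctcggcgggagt
The match lies 49 bases before the start of H2BC12 and 46 before that of H2BC21, counted from its first base. H2AC6 and H2BC4 are transcribed away from each other, and the octamer of H2AC6, which begins 130 bases before its start, is the same site as that of H2BC4, 123 bases before the start of that gene. H2BC5 has no exact match in these letters. Searched on both strands of the 250 bases before the start, the octamer was present in 6 of the 12 measured histone genes, with the site of the divergent pair counted for both, beside 573 of 35116 promoters (1.63%). A match is a run of letters and not evidence of binding, and no match says nothing about the factor.

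The other 8 genes that fell were CSF1R, CLEC5A, CXCL8, GPR183, ITGAL, NCF1, ANKRD22 and TFRC. CSF1R read 6.97 and 6.8 in E10 and 6.92 and 6.8 in E14 at 24 and 48 h, against 8.21 and 7.58 in E10 and 9.1 and 8.65 in E14 at 6 and 12 h. The clones differed early and were alike late, and the log2 change was -1.51 (standard error 0.21, limma adjusted p = 0.031). CLEC5A, a lectin receptor of myeloid cells, read 9.73 and 9.1 in E10 and 10.02 and 9.37 in E14 at 24 and 48 h, against 10.45 and 10.34 in E10 and 11.2 and 10.98 in E14 at 6 and 12 h (log2 change -1.18, limma adjusted p = 0.032). CXCL8, which encodes interleukin 8, read 6.75 and 6.5 in E10 and 6.94 and 7.01 in E14 at 24 and 48 h, against 7.99 and 7.54 in E10 and 8.72 and 8.18 in E14 at 6 and 12 h (log2 change -1.31, limma adjusted p = 0.031). A second CXCL8 probe set fell by 1.65.

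GPR183, a receptor for oxysterols, fell by 1.13, and ITGAL, the alpha chain of the integrin LFA-1, fell by 1.13 (limma adjusted p = 0.031 and 0.039). NCF1, a cytosolic subunit of the phagocyte oxidase, fell by 0.73, ANKRD22 by 0.65 and TFRC, the transferrin receptor, by 0.61. NCF1 has near-identical copies in the genome, and its probe set is of the kind that may read them too. CSF1R and CLEC5A were the 2 called genes of 27 in the list of monocyte and macrophage maturation, in which 3 differences were above 0 and the median was -0.29, and CXCL8 was the 1 called gene of 21 among NF-kB targets and cytokines, with a median of -0.21. In these bulk cultures, fewer cells of a type and less RNA per cell cannot be told apart. Of the 32 lists examined, 24 had no called gene between late and early arrays. Only 0.12% and 0.0546% of all genes were called higher and lower, so that nothing is read from a list without a call. Among these lists were the interferon-stimulated genes (34 measured, median 0.01), ribosome biogenesis (34, 0.02), cytosolic ribosomal proteins (21, -0.02) and mitosis (31, -0.03).

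In a fit of all 16 clone arrays, the same comparison called 2672 genes higher (14.6%) and 2334 lower (12.7%) without tet, against 38 and 16 with tet. Of the called genes described above with their own values (the 10 rises of 0.57 to 0.76 were not examined), SREBF1, LMTK3, ADRB1, ERGIC1, SAMD13, CXCL8, CLEC5A, ITGAL and NCF1 were not called with tet in that fit (limma adjusted p 0.053 to 0.41). The overlap that follows uses the 22 and 10 genes of the 8-array fit. Of the 22 genes that rose with tet, 12 also rose without tet, which is 54.5% of them and 0.449% of the genes that rose without tet. Of the 10 genes that fell with tet, 6 also fell without tet (60% and 0.257%). DDIT4 changed by 1.15 without tet and by 1.31 with tet, SREBF1 by 1.11 and 0.88, CXCL8 by -1.47 and -1.31, and GPR183 by -1.05 and -1.13. For these 4 genes the difference between the conditions was not called (limma adjusted p 0.69 to 0.92).

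The difference between the conditions was called for 12 of the 32 genes, 7 that rose and 5 that fell with tet, beside 1141 (6.23%) and 970 (5.3%) of all genes whose change was more positive or more negative without tet. The 32 genes were chosen for a large change in arrays that enter this difference, so that nothing is read from their share against that of all genes. The cultures without tet differ from those with tet in tet itself as well as in EVI1, and the 2 parts were not tested. The paper reports that tet withdrawal also altered expression in control cells. NCF1 changed by 1.87 without tet and by -0.73 with tet (difference 2.60, limma adjusted p = 0.0027). At 48 h, NCF1 read 9.07 in P2 and 9.02 in U937T without tet, against 5.57 and 6.52 with tet. ITGAL changed by 0.49 without tet, which was not called, and by -1.13 with tet, and CSF1R by -0.34, not called, and -1.51 (limma adjusted p of the difference 0.0045 and 0.018). In P2 and U937T at 48 h, ITGAL read 8.76 and 8.1 without tet and 6.14 and 5.8 with tet. CSF1R read 7.49 and 7.33 there without tet and 6.93 and 6.67 with tet. CLEC5A fell further without tet (-2.66) than with tet (-1.18), and so did TFRC (-1.24 without tet, -0.61 with tet). In P2 and U937T at 48 h, CLEC5A read 9.9 and 9.79 without tet and 9.37 and 9.72 with tet. TFRC read 12.07 and 12.1 there without tet and 12.01 and 12.13 with tet. DHCR7 changed by 0.04 without tet and by 0.81 with tet, and WDR49 by 0.03 and 1.13 (limma adjusted p of the difference 0.00095 and 0.004). SAMD13, TUBE1, ANK2 and HRK fell without tet and rose with tet, and CLCN4 rose by 1.59 without tet and by 0.70 with tet. Of 34 ribosome biogenesis genes, 33 fell without tet and 0 were called with tet, and the difference between the conditions was called for 32. Of 34 interferon-stimulated genes, 24 rose and 2 fell without tet and 0 were called with tet, and the difference was called for 14.

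**Figure D2:**
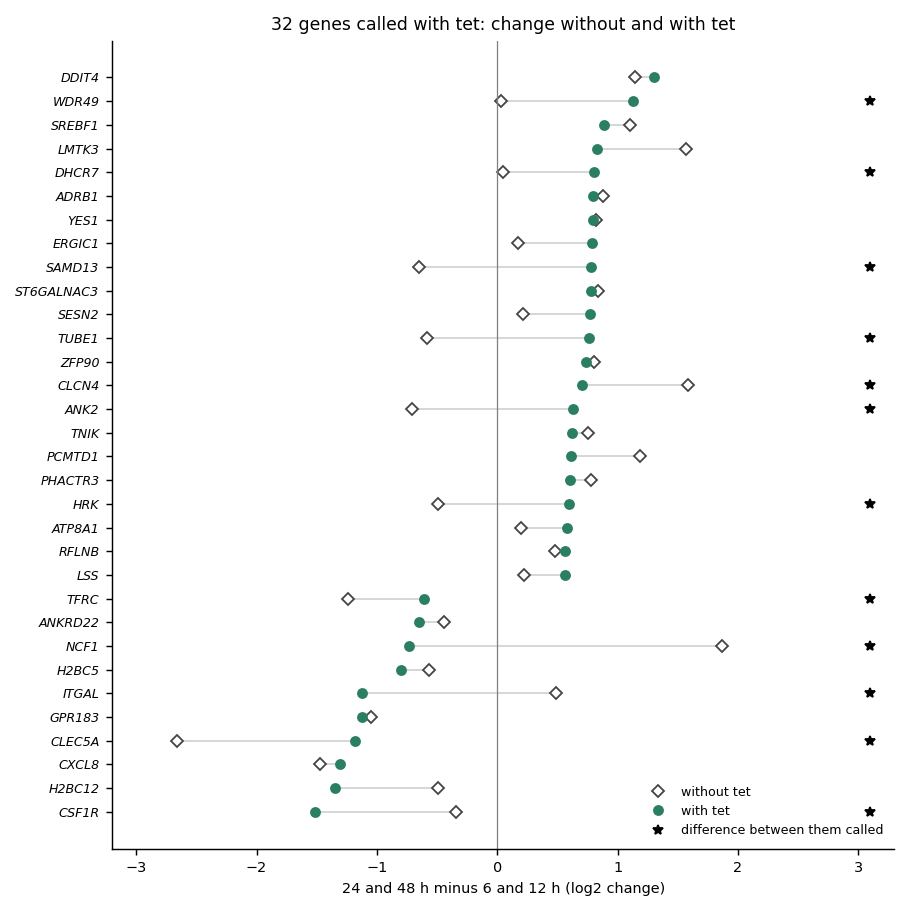
Log2 change at 24 and 48 h against 6 and 12 h of the 32 genes called with tet, as open diamonds without tet and filled circles with tet; a star marks genes whose 2 changes differ at a limma adjusted p under 0.05. The 12 starred genes include NCF1 (1.87 without tet, -0.73 with tet), while DDIT4, YES1 and GPR183 lie close together.

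With each time as its own group, 658 genes (3.59%) were higher and 832 (4.54%) lower at 12 h than at 6 h, 0 (0%) were called between 24 and 12 h, and 3 (0.0164%) were higher and 5 (0.0273%) lower at 48 h than at 24 h. At an unadjusted limma p under 0.05 there were 4357, 2240 and 2858 genes in the 3 steps, and a fit with an intensity trend and robust variances called 38 and 12 genes between 24 and 12 h. The fit of late against early arrays takes 6 and 12 h, and 24 and 48 h, as replicates, and so picks genes with small steps within these pairs. As a description of the genes so chosen, the median steps of the 22 that rose were 0.10 (12 minus 6 h), 0.65 (24 minus 12 h) and 0.01 (48 minus 24 h), and those of the 10 that fell were -0.33, -0.74 and -0.17. Only DDIT4 among the 32 was also called between 6 and 12 h. Across genes, the 12 minus 6 h changes of E10 and E14 correlated with r = 0.62, the 24 minus 12 h changes with 0.32 and the 48 minus 24 h changes with 0.28, as a description in which the 2 clones share no array.

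**Figure D3:**
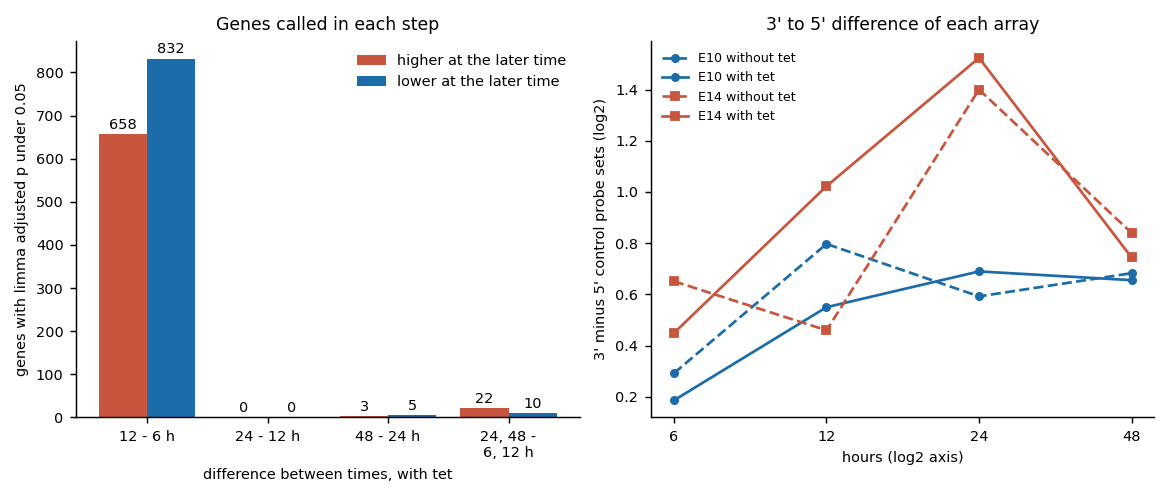
Left, the number of genes called higher or lower (limma adjusted p under 0.05) in each difference between times with tet; right, the 3′ minus 5′ difference of the control probe sets (log2) of each array by hours (log2 axis), dashed without tet and solid with tet. There were 1490 calls between 6 and 12 h, and the 3′ to 5′ difference rose by 0.364 in E10 and 0.573 in E14 with tet in this step.

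The 3′ to 5′ difference of the arrays also rose between 6 and 12 h in both clones with tet, so that its part in the calls cannot be told apart from that of time in these 4 arrays. A fit with this difference as a covariate, added after seeing the data, called 1 higher and 0 lower genes. The covariate rose with the step in both clones and few residual degrees of freedom remain, so that the loss of calls shows no source. The steps in that fit were 1.68 for ANKRD13D, 1.65 for EIF3C and -1.54 for H2AC6, against 1.71, 1.61 and -1.82 without the covariate. The same step in the cultures without tet, in which EVI1 was induced, rests on 1 pair of arrays per clone. In E10 without tet the 3′ to 5′ difference rose by 0.504, and 97.6% of the 658 and 95.9% of the 832 genes moved the same way, with medians of 0.41 and -0.48. In E14 without tet it fell by 0.191, and 39.4% and 43.3% of the genes moved the same way, with medians of -0.06 and 0.04. MECOM read 8.52 at 6 h and 9.52 at 12 h in E10 without tet, and 8.63 and 9.92 in E14 without tet. The part of these differences in the step was not tested.

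**Figure D4:**
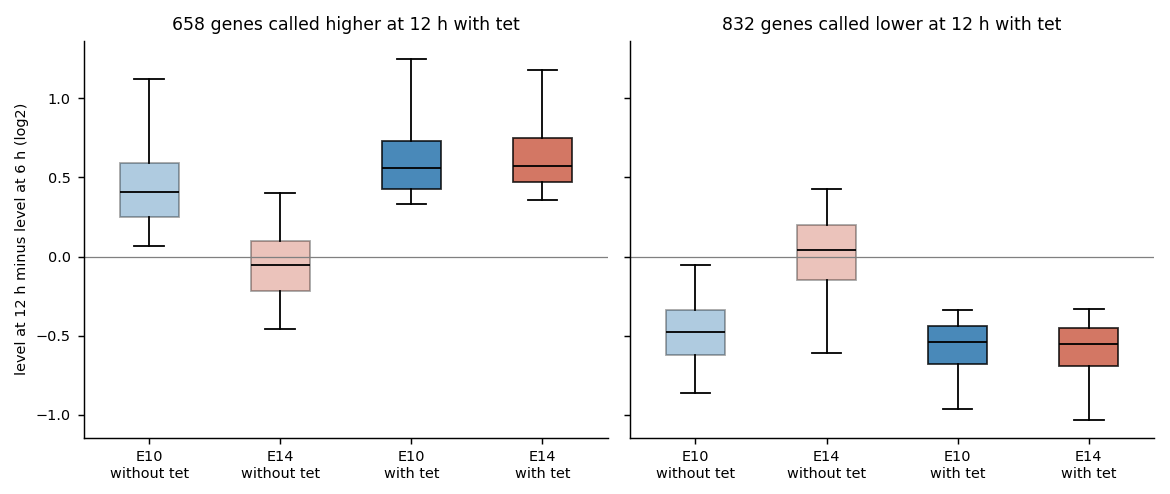
Difference between the levels at 12 and 6 h (log2) in each culture for the 658 genes called higher (left) and the 832 called lower (right) at 12 h with tet; boxes give the quartiles and the median, whiskers the 5th and 95th percentiles. The boxes with tet are those that chose the genes. The medians are 0.41 (E10) and -0.06 (E14) without tet in the higher set, and -0.48 and 0.04 in the lower set.

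The 3 largest rises of the step were ANKRD13D, EIF3C and IL1A. ANKRD13D, an ankyrin repeat protein, read 8.57, 10.25, 10.29 and 9.82 in E10 and 8.88, 10.62, 10.43 and 9.87 in E14 at 6, 12, 24 and 48 h (12 minus 6 h 1.71, limma adjusted p = 0.00076). EIF3C, a subunit of translation initiation factor 3 with a near-identical gene copy, rose by 1.61 and IL1A, which encodes interleukin 1 alpha, by 1.61 in the same step (limma adjusted p = 0.00076 and 0.0024). In E14 without tet these 3 genes read 9.63, 6.3 and 5.52 at 12 h and 9.88, 6.64 and 5.29 at 6 h, so that ANKRD13D and EIF3C did not follow there and IL1A moved by little. The second probe set of IL1A, a dim one, read 0.01, and the other 2 of ANKRD13D read 0.49 and 0.81.

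The 3 largest falls of the step were histones, and all 3 also had lower levels at 12 than at 6 h in E14 without tet. H2AC6 read 8.77, 7.21, 6.34 and 6.16 in E10 and 9.77, 7.7, 6.23 and 6.21 in E14 at 6, 12, 24 and 48 h with tet, and in E14 without tet 9.51 at 6 h and 7.5 at 12 h. H2BC21 read 5.7 and 4.35 in E10 and 6.44 and 4.18 in E14 at 6 and 12 h with tet, and 6.06 and 4.46 in E14 without tet. H2BC4, which shares its octamer with H2AC6, read 6.56 and 5.06 in E10 and 7.17 and 5.07 in E14 with tet, and 7.09 and 5.07 in E14 without tet. Over the 12 histone genes, of which 8 were called lower in the step with tet, the median differences between 12 and 6 h were -0.49 in E10 and -0.56 in E14 without tet and -0.51 in E10 and -0.69 in E14 with tet, beside medians of -0.02 to 0 over all genes without tet and 0 and -0.03 with tet.

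Over the full span the changes were larger, and the comparison of 48 with 6 h was added after seeing the data. From the same fit 696 genes (3.8%) were higher and 851 (4.65%) lower at 48 h than at 6 h with tet. All 32 genes named above were among them, but they had been chosen with these same arrays, so that this is no independent result. With the covariate the counts were 38 and 19, and without E10 at 48 h they were 122 and 96. The members named in the following lists were taken by the size of this change, after their values had been seen.

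Of the 19 genes of cholesterol synthesis and uptake, 8 were higher and 0 lower at 48 h, with a median of 0.27 beside -0.03 over all genes. INSIG1, which holds the sterol regulatory element binding proteins in the endoplasmic reticulum and is itself one of their targets, read 9.18, 9.71, 10.14 and 10.55 in E10 and 8.99, 9.77, 10.06 and 10.75 in E14 at 6, 12, 24 and 48 h. It climbed at every step in both clones, to a log2 change of 1.57 (standard error 0.11, limma adjusted p = 0.00046). MSMO1, a sterol methyl oxidase, changed by 1.40 and STARD4, a sterol carrier, by 1.23 (limma adjusted p = 0.00046 and 0.0019). In E14 without tet INSIG1, MSMO1 and STARD4 rose between 6 and 12 h as well, and read 8.83, 8.88 and 7.34 at 6 h and 9.59, 9.81 and 8.53 at 12 h. HMGCS1, IDI1 and HSD17B7, enzymes of the pathway, changed by 0.62, 0.37 and 0.84, while SQLE and SREBF2 read -0.06 and 0.07 and were not called. In the fatty acid list 4 genes were higher, SREBF1 (1.09), SCD (0.78), ACACA (0.71) and LPIN1 (0.66), and 1 was lower, ME1 (-0.41).

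Of the 22 amino acid and ATF4 targets, 5 were higher and 1 lower, with a median of 0.10. DDIT4 changed by 1.89, SESN2 by 0.94, CHAC1, which degrades glutathione, by 0.69, TRIB3, a pseudokinase, by 0.52, and the factor ATF4 itself by 0.36, and PPP1R15A, a phosphatase subunit that reverses the stress response, by -0.56. In the hypoxia list 5 of 24 were higher and 1 lower with a median of 0.005, among them the vessel growth factor VEGFA (0.87) and the regulators of glucose use PFKFB4 (0.69) and PDK1 (0.59). None of 17 genes of glycolysis and lactate export was higher and 1, PFKM, was lower (-0.42).

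Of the 12 histone genes, 10 were lower at 48 h and the median was -1.09. H2AC6 changed by -3.09, H2BC4 by -2.01, H4C8 by -1.83, H2BC12 by -1.73 and H2BC21 by -1.67 (limma adjusted p 0.00046 to 0.0046), while H1-3 (-0.37) and H3C2 (-0.32) were not called. At 24 and 48 h with tet H4C8 read 3.29 to 3.66, H2BC21 4.24 to 4.42 and H2BC4 4.61 to 5.14. These levels lie below the array medians of 5.25 to 5.33, so that the sizes of these falls are uncertain. The median of the 12 genes from 6 to 48 h was -0.34 in E10 and -0.43 in E14 without tet and -1.0 in E10 and -1.18 in E14 with tet. H2BC21 in particular read 6.25 in E10 and 6.48 in E14 at 48 h without tet and 4.39 and 4.42 with tet. Other genes of the cell cycle moved less: 6 of 33 DNA replication genes were lower with a median of -0.22, led by the helicase subunit MCM7 (-0.64), and 9 of 31 mitosis genes with a median of -0.24, led by the centromere histone CENPA (-0.68) and the kinase PLK1 (-0.64), and none was higher. The share of cells in S phase is not measured by these arrays, and its part in the histone fall was not tested.

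The list of monocyte and macrophage maturation had 13 of 27 genes lower and 0 higher at 48 h, with a median of -0.55. CSF1R changed by -1.86, CLEC5A by -1.59, S100A8, a calcium-binding protein of granulocytes and monocytes, by -1.22, TREM1, a receptor that amplifies inflammation, by -1.08, and FCER1G, a signaling chain of Fc receptors, by -1.05. CD14 (-0.08), LYZ (-0.32) and ITGB2 (-0.17) were not called. The U937 identity markers had 3 of 12 genes lower and 0 higher over the same span, with a median of -0.20, and these were CSF1R, which is in both lists, SPI1 (-0.67), a factor of myeloid cells, and CSF2RA (-0.51), a cytokine receptor chain. S100A8 rose by 1.53 at 24 and 48 h against 6 and 12 h without tet and read -0.75 with tet, which was not called, and the difference between the conditions had a limma adjusted p of 0.007. In the control lines at 48 h, S100A8 read 10.36 (P2) and 10.43 (U937T) without tet, against 6.78 and 7.09 with tet. Of the NF-kB targets and cytokines 8 of 21 were lower and 0 higher, with a median of -0.40, led by CXCL8 (-1.60), CD83 (-1.14), a surface marker of activated cells, and RELB (-1.07), an NF-kB subunit.

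Metallothioneins, which bind zinc and copper, and the zinc exporter SLC30A1 were lower at 48 h in 7 of 8 cases, with a median of -0.64. MT1X read 12.86, 12.86, 12.62 and 12.3 in E10 and 13.33, 13.12, 12.59 and 12.25 in E14 at 6, 12, 24 and 48 h (48 minus 6 h -0.82, limma adjusted p = 0.0097). MT1F changed by -0.84 and MT2A by -0.67. Between 6 and 12 h only SLC30A1 of the 8 was called (-0.69). Metallothionein genes are close copies of each other, so that their single names are uncertain. Without tet the median from 6 to 48 h was -1.41 in E10 and -1.71 in E14, and with tet -0.39 in E10 and -0.80 in E14.

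Oxidative stress genes had 6 of 14 lower and 0 higher at 48 h, with a median of -0.36. HMOX1, heme oxygenase 1, read 6.62, 5.78, 5.55 and 5.67 in E10 and 8.59, 6.33, 5.63 and 5.55 in E14 at 6, 12, 24 and 48 h, so that the clones differed mainly at 6 h (48 minus 6 h -2.0, standard error 0.39, limma adjusted p = 0.017). In E14 without tet HMOX1 read 8.21 at 6 h and 6.15 at 12 h. NQO1 changed by -0.75 and SRXN1, which reduces peroxiredoxins, by -0.74. Among lysosome and autophagy genes 7 of 26 were lower and 1 higher with a median of -0.11, with the autophagy receptor SQSTM1 at -1.02 and MAP1LC3B at -0.88. MAP1LC3B read 10.95 and 9.74 in E10 and 10.96 and 9.63 in E14 at 6 and 12 h, and 10.57 and 10.15 in E14 without tet, so that its fall was smaller there. Of 709 genes named as antisense or intronic transcripts, 26 were higher and 8 lower at 48 h, with a median of -0.01. Of all 18314 genes tested, 696 (3.8%) were higher and 851 (4.65%) lower, so that the 26 rises are near the share over all genes.

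**Figure D5:**
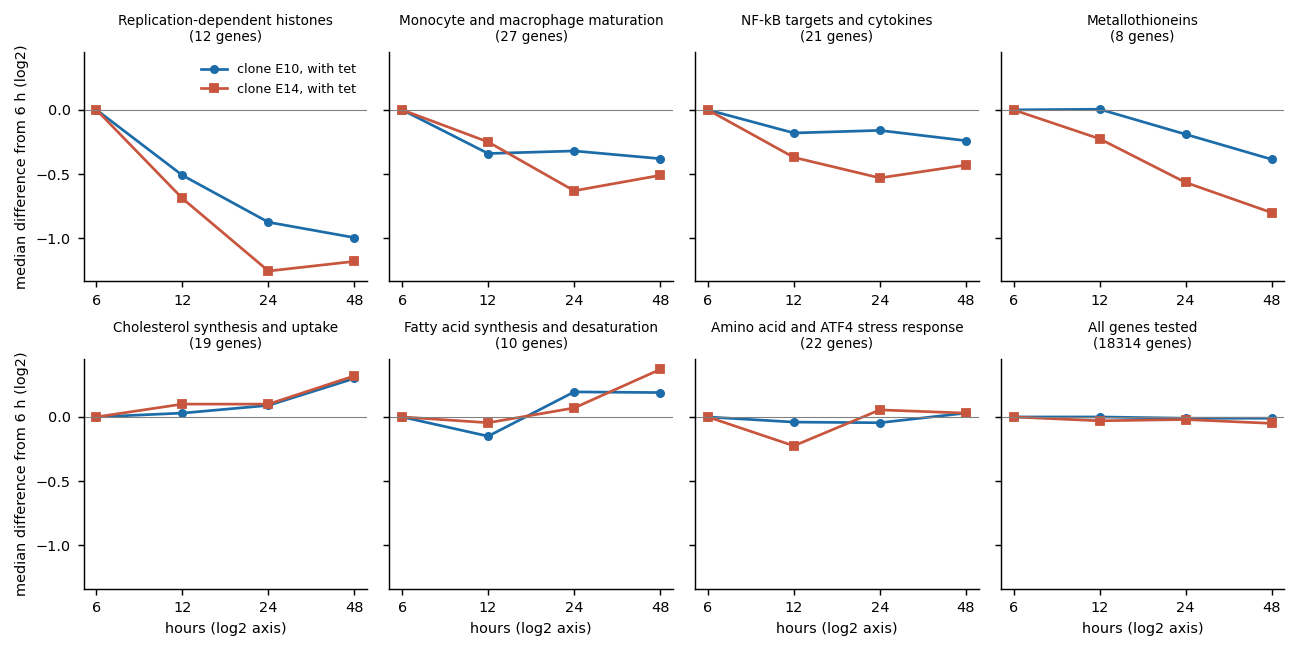
Median over the measured members of each list of the difference from 6 h in the same clone (log2) by hours (log2 axis), with circles for E10 and squares for E14, both with tet. Histones end at -1.0 and -1.18 at 48 h and metallothioneins at -0.39 and -0.80, while all genes end at -0.01 and -0.05.

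The last step, from 24 to 48 h, held 8 called genes. GINS4, a subunit of the replicative helicase complex, read 8.65, 8.38, 7.98 and 10.09 in E10 and 8.46, 7.93, 8.02 and 9.76 in E14 at 6, 12, 24 and 48 h (48 minus 24 h 1.92, standard error 0.13, limma adjusted p = 0.0017). The other 3 GINS4 probe sets moved by -0.01 to 0.11 in this step, so that the rise was seen by 1 of 4. GNL3L, a nucleolar GTPase, read 8.09, 8.55, 7.56 and 9.77 in E10 and 8.08, 8.18, 8.06 and 9.72 in E14 (48 minus 24 h 1.93, limma adjusted p = 0.011), and 2 of its other 3 probe sets rose by 1.09 and 1.37. Over the 20 arrays the probe sets used for GINS4 and GNL3L correlated with r = 0.92, and with 0.87 without the 2 farthest arrays. Whether they read separate transcripts was not tested. EGR1, a factor of the immediate early class, read 9.4, 8.32, 7.83 and 9.28 in E10 and 8.66, 8.15, 7.03 and 9.05 in E14, a fall to 24 h that was made up at 48 h (48 minus 24 h 1.74, limma adjusted p = 0.011). All 3 EGR1 probe sets rose, by 1.28 to 1.74. KIFC2, a kinesin, fell by 1.01, LENG8 by 0.98 and SLC25A25-AS1, an antisense transcript, by 0.85, and UNKL and ELMO3 were the other 2 that fell. A second, dimmer KIFC2 probe set fell by 0.46. Between 6 and 12 h KIFC2, LENG8 and SLC25A25-AS1 had been called higher, by 0.44, 0.64 and 0.85, and none of them was called between 6 and 48 h. All 8 calls of the step from 24 to 48 h were lost without E10 at 48 h or E14 at 48 h.

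Whether the clones differ in these changes could hardly be tested with 1 array per clone and time. Between late and early cultures with tet, the changes of E10 and E14 correlated with r = 0.56 across genes, which are not independent replicates. A test of the difference between the clones, added after seeing the data, called 0 genes in limma, with 272 at an unadjusted p under 0.05 and a smallest adjusted p of 1, and these calls do not show that the clones changed alike. CSF1R changed by -1.01 in E10 and by -2.01 in E14, and YES1 by 0.52 in E10 and by 1.07 in E14 (limma unadjusted p of the difference 0.0096 and 0.0068, adjusted p of 1 for both). The spread of CSF1R was 0.087 (SD) among the 4 late arrays and 0.65 among the 4 early ones.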

How the data were processed

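RNA of E10 and E14 (6, 12, 24 and 48 h, with and without tet) and of P2 and U937T (48 h) was hybridized to HG-U133 Plus 2.0 arrays, 1 array per clone, time and condition. The deposited values are log2 intensities, which the authors made with RMA (background correction, quantile normalization and summary per probe set), and they were used as they are. Of 54675 probe sets, 41097 carry 1 gene symbol in the platform annotation, 1801 carry several and 11777 none. The filter was a mean log2 of at least 3 over the 8 arrays with tet (36689 probe sets, 18314 genes), since the filter of the study uses only late times. Scale and centring were taken as given: array medians ran only 5.25 to 5.33 over the 8. Array data carry no read depth, and the number of arrays limits the precision.

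Fits used limma 3.58.1 in R 4.3.3 with lmFit and eBayes, Benjamini-Hochberg adjustment over all genes and an adjusted p under 0.05 as the call. Late and early arrays were compared with the clone as a fixed block (5 residual and 5.29 prior degrees of freedom), steps with 4 times and the clone (3 residual, 6.05 prior), and the cultures without tet in a fit of 16 arrays. With 1 array per time and clone, 6 and 12 h, and 24 and 48 h, stood in for replicates, and p-values measure the spread between these samples. Replicate numbers do not pair the samples. The clone does, since arrays of 1 clone come from the same cell line: across genes, E10 minus E14 at one time correlated with that at another by 0.067 to 0.404. The fits were tested on simulated data. Genes named are the 10 largest calls in each direction whose groups do not overlap, up to 4 called genes of each list, the 3 largest calls of each step and direction, MECOM, MS4A3 and CD52; others were chosen after their values were seen. The comparison, the 32 gene lists and these rules were chosen with earlier results of these data known. Alternatives were other filters, probe sets, centring, variance models, blocks, sets of arrays, time codings, a 2-fold minimum, leaving out arrays or clones, and a covariate for the 3′ to 5′ difference. Centring moved no list median between 48 and 6 h by more than 0.04.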

Additional observations from a re-analysis of the deposited data

Results flagged for a closer look

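In the 76 groups of 4 arrays examined for a value far from the others, 1 was found, where chance gives about 1 in 20 groups. The 3′ to 5′ difference of E14 at 24 h was 1.52, against 0.66 to 0.74 in the other 3 late arrays with tet, a gap of 0.897 of the whole range. The E14 array at 24 h without tet read 1.4. Without the E14 array at 24 h with tet none of the 32 calls remained, but the same held without E10 at 48 h, E14 at 6 h or E14 at 48 h.

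The change between 24 and 48 h and 6 and 12 h differed between cultures without and with tet for 10 of the named genes in the 16-array limma fit. Loss of tet and induction of EVI1 go together in this comparison and cannot be told apart by it. The difference, without minus with tet, was 2.60 for NCF1 (adjusted p = 0.0027), 1.62 for ITGAL (0.0045), 1.17 for CSF1R (0.018) and 2.48 for CD52 (0.029). It was -2.50 for MS4A3 (0.016), -1.48 for CLEC5A (0.036), -1.43 for SAMD13 (0.0028), -1.09 for WDR49 (0.004), -0.76 for DHCR7 (0.00095) and -0.63 for TFRC (0.014). CD52 and MS4A3, which were named as checks, changed by 2.40 and -2.40 without tet and by -0.09 and 0.10 with tet.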

How the results depend on the processing

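All 32 genes kept their direction under every removal of 1 array or clone, which their lack of overlap between late and early arrays fixed in advance. No named gene that was called reversed under any alternative, but the calls depend on the fit. Genes called higher and lower at 24 and 48 h with tet (22 and 10) were 0 and 0 with the probe set of largest spread, 38 and 16 with all 16 clone arrays, 52 and 21 with all 20 arrays, 618 and 360 with 4 times as groups, 102 and 109 as a slope over log2 time, 2 and 6 at 2-fold or more, 1 and 0 without E14 at 12 and 24 h, and 1 and 0 with the 3′ to 5′ covariate. Without the replicate block (the clone) they were 20 and 7. Leaving out 1 array or 1 clone gave 0 to 30 and 0 to 22, and 0 in both directions without either clone.

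Between 12 and 6 h (658 and 832), an intensity trend with robust variances gave 1185 and 1548, the covariate 1 and 0, no block 98 and 142, and the probe set of largest spread 1072 and 1467; leaving out arrays gave 28 to 660 and 16 to 790, the low values coming with any 6 or 12 h array left out (28 to 118 and 16 to 93). Between 24 and 12 h (0 and 0), 16 arrays gave 6 and 2, the trend 38 and 12, and leaving out arrays 0 to 1 in each direction. Between 48 and 24 h (3 and 5), 16 arrays gave 2 and 3, the trend 64 and 221, the covariate 0 and 0, no block 2 and 0, the probe set of largest spread 4 and 0, and leaving out arrays 0 to 7 and 0 to 5. Between 48 and 6 h (696 and 851), the trend gave 1080 and 1482, the covariate 38 and 19, no block 319 and 359, and leaving out arrays 122 to 655 and 96 to 822. Without tet (2672 and 2334), leaving out arrays or a clone gave 802 to 2666 and 492 to 2552. The covariate, block and probe set alternatives for the steps and the comparison of 48 with 6 h were chosen after seeing the data. The covariate was lowest at 6 h in both clones with tet. It fell from 24 to 48 h, from 0.69 to 0.656 in E10 and from 1.52 to 0.745 in E14, so that it follows time only in part. Its part in the calls lost with it was not tested. The causes were not tested.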
